A study of Mus musculus with 4 samples.

Results

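The genes described here are 36 collagens and fibrillar matrix genes, taken from the 31253 genes in the files by matching each name to the gene symbol. All 36 were found. They are 19 collagen chains, 7 matrix glycoproteins, 6 proteoglycans, and 4 genes for proteins that process or degrade collagen. Their UMIs (unique molecular identifiers, which count captured RNA molecules) were followed through the fibroblast, mural, endothelial and epithelial cells of hypoxic mouse lungs. WT mice and Vegfr2Y949F mice were compared. In the mutant, as its name says, phenylalanine replaces a tyrosine of VEGFR2, the VEGF receptor of endothelial cells that Kdr encodes. All mice were C57BL/6J, 6 to 8 weeks old, and were kept in hypoxia for 6 weeks, so the WT animals carry that exposure too, and no normoxic lung was analysed here. Each genotype had 2 single-cell libraries, of a set A and a set B, and each library pooled lung cells of 2 mice, which makes 8 mice in all. What the set letters stand for is not given in the labels. The libraries labelled Vegfr2Y949F are called mutant below, and values of the 4 libraries are given in the order WT A, WT B, mutant A, mutant B.

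Fibrillar collagens of types I, III and V are secreted as procollagens, trimmed outside the cell and assembled into the fibres that carry tension in the lung. Small leucine-rich proteoglycans and fibril-associated collagens coat these fibres and set their diameter, while glycoproteins such as fibronectin, tenascins and thrombospondins link them to cells. In the lung most of this matrix is made by fibroblasts of the alveolar wall and of the adventitia, the sheath around vessels and airways, and chronic hypoxia is known to thicken that adventitia and the muscle layer of small pulmonary arteries.

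The 4 libraries held 11992 to 15160 barcodes and 83606389 to 96521589 UMIs, and 41248 of 53287 barcodes were kept as cells with a median of 4312 to 5548.5 UMIs per library. Pairs of libraries shared 43 to 70 barcodes, 0.35% to 0.557% of the smaller one. Cells were named from marker genes that include none of the 36 genes, and each type name below stands for cells like that type. The 25 named types left 1776 cells without a name. Alveolar fibroblasts numbered 977, 774, 850 and 1201 cells, adventitial fibroblasts 235, 186, 178 and 178, myofibroblasts 36, 72, 60 and 64, smooth muscle cells 65, 63, 64 and 39, and pericytes 233, 171, 215 and 157. Endothelial cells (general capillary, aerocyte, arterial and venous together) numbered 5341 to 7707 per library, and alveolar type 1 cells 224 to 305. Libraries differed in their leukocytes: neutrophils made up 16.2% of the cells of mutant A and 4.05% to 5.51% of the others. Levels are CPM, the UMIs of a gene scaled to a common total of UMIs over all cells of that type in a library. A CPM counts the tagged end of a transcript and depends on the gene as well as on its abundance, so levels are compared between cell types for a gene and not between genes.

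The genes lie on 15 chromosomes, and 4 pairs are neighbours in the GENCODE M21 annotation of mouse build GRCm38. Col3a1 (chr1:45311538-45349706, plus strand) and Col5a2 (chr1:45374321-45503282, minus strand) are 24.6 kb apart with no gene between them. Dcn and Lum, on chromosome 10, lie 47.0 kb apart on the plus strand, and Col6a5 and Col6a6, on chromosome 9, 27.9 kb apart on the minus strand. Col6a1 and Col6a2 are 85.2 kb apart on chromosome 10. In the same annotation 21 of the 36 genes overlap another gene, 17 of them on the opposite strand. Among these are Ogn, which overlaps Cenpp, and Col18a1, which overlaps Slc19a1. Whether the counting used the strand was not given in the sources used here, so whether reads of such partners were kept apart is not known here.

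Promoter sequence was in hand for 27 of the 36 genes. The 100 bases before the RefSeq start of 5 genes follow. They were chosen to cover several patterns over cell types: Col3a1 in all fibroblasts, Ogn in alveolar fibroblasts, Postn in pericytes, Serpinh1 in stroma and endothelium, and Bgn in fibroblasts and in the endothelium of larger vessels. Only windows outside annotated exons and close to an annotated gene boundary are shown. The sequences are from RefSeq, build GRCm38.p6, written 5′ to 3′ along the gene's strand. Capitals mark matches to TATAAA or to GGGCGG, searched on both strands, and a match on the minus strand reads as the reverse complement. The windows are Col3a1 at chr1:45311438-45311537 (plus strand), Ogn at chr13:49607915-49608014 (plus strand), Postn at chr3:54361007-54361106 (plus strand), Serpinh1 at chr7:99353240-99353339 (minus strand) and Bgn at chrX:73483501-73483600 (plus strand).
Col3a1: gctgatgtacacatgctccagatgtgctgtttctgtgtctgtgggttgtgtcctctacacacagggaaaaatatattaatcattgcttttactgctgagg
Ogn: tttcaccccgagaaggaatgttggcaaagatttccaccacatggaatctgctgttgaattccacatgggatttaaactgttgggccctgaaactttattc
Postn: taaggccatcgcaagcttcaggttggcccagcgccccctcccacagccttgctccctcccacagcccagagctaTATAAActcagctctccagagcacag
Serpinh1: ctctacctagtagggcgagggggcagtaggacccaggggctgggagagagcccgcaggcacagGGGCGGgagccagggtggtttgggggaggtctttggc
Bgn: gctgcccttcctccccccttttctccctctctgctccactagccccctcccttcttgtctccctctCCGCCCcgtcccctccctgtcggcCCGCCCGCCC

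Postn had a TATAAA whose first base lay 26 bases before the start. Serpinh1 had a GGGCGG at -37, and Bgn had 3 on the minus strand at -34, -10 and -6, of which the last pair overlap. None of the searched letters was in the windows shown for Col3a1 and Ogn. Over all 31 windows of the 27 genes, 2 (6.5%) held TATAAA, against 5.6% of 32851 windows of the same length in the table. GGGCGG was in 11 (35.5%), against 24.7%, and CCAAT in 0, against 18.9%. These are matches of letters and were not tested.

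The type I and III chains were genes of fibroblasts and mural cells, and their means in alveolar type 1 cells were 1.52 CPM for Col1a1, 3.72 for Col1a2 and 3.35 for Col3a1. Col1a1, which encodes the main chain of type I collagen, stood at 2496, 2023, 2158 and 2186 CPM in adventitial fibroblasts and at 892, 877, 801 and 796 CPM in alveolar fibroblasts, with no overlap between the types. Pericytes held 351, 290, 342 and 338 CPM of Col1a1. Its partner chain Col1a2 stood at 3594, 2861, 3399 and 3122 CPM in adventitial fibroblasts and at a mean of 1197 CPM in alveolar ones. Col3a1, the type III chain of compliant vessel and lung tissue, had means of 2268 CPM in adventitial fibroblasts, 1291 in myofibroblasts and 972 in alveolar fibroblasts. The types in this paragraph come from clusters of the same cells, and 25 of the 36 genes were among the variable genes that made them, so differences between types are given as description, with no test.

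The type V chains, which start and thin the type I fibre, were less confined. Col5a1 averaged 220 CPM in adventitial fibroblasts, and its range there overlapped that of myofibroblasts at 185 CPM. Col5a2 reached 255 CPM in adventitial fibroblasts and kept 61.8, 71.0, 53.9 and 58.5 CPM in arterial endothelium and 47.1, 40.7, 46.2 and 50.2 CPM in alveolar type 1 cells, against a mean of 5.41 CPM in aerocytes. Col5a3 was the fibrillar chain highest in pericytes, at 37.0, 33.4, 48.0 and 35.6 CPM, a range that overlapped that of the myofibroblasts.

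Type VI collagen builds beaded filaments around cells, and its 3 common chains were genes of all stromal types. Col6a1 averaged 508 CPM in adventitial fibroblasts, 434 in alveolar fibroblasts and 305 in myofibroblasts, and Col6a2 averaged 403, 279 and 206 CPM in the same order. Col6a3 was highest in myofibroblasts, at a mean of 474 CPM, and averaged 345 in alveolar fibroblasts. The alternative chains were close to absent. Col6a5 gave 53 UMIs in all kept cells and Col6a6 gave 49, of which 13 were in myofibroblasts, at a mean of 11.4 CPM. Col6a1 also stood at 69.4, 97.8, 104 and 52.0 CPM in alveolar type 2 cells, the surfactant cells, of which the libraries held 6, 74, 14 and 28.

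**Figure D1:**
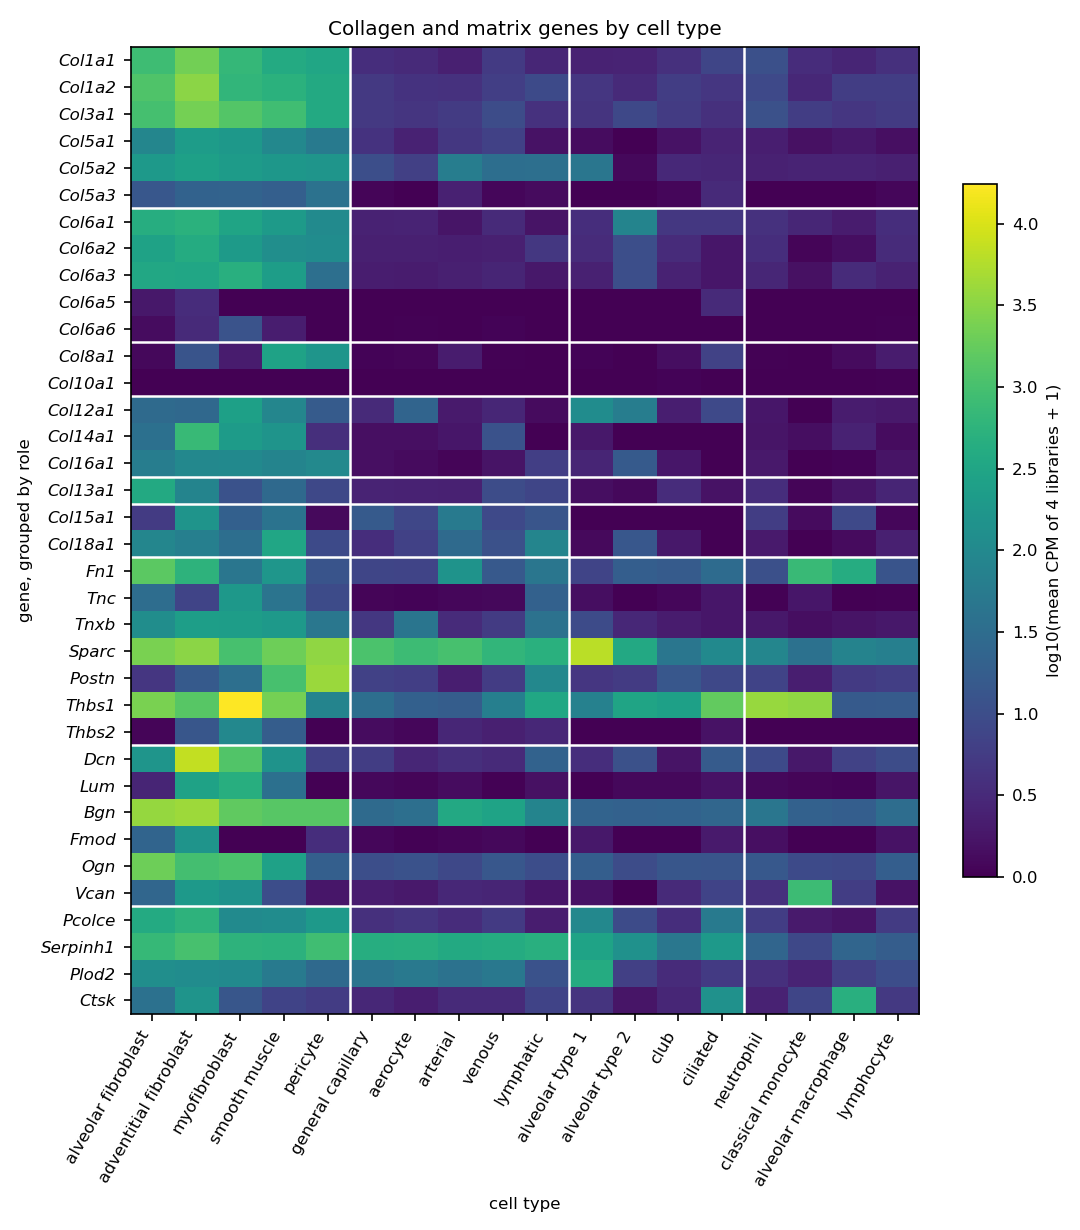
Levels of the 36 genes (rows, grouped by role with white lines) in 18 cell types or groups of types (columns: stroma, endothelium, epithelium, leukocytes). Colour is log10 of the mean CPM of the 4 libraries plus 1. The type I and III and the common type VI chains are brightest in the 5 stromal columns, while Sparc, Bgn, Thbs1 and Serpinh1 are seen in many columns.

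The network collagen Col8a1, a short-chain collagen of the vessel wall, was a mural gene. It stood at 314, 270, 295 and 250 CPM in smooth muscle cells and at 189, 165, 166 and 124 CPM in pericytes, and averaged 11.4 CPM in adventitial fibroblasts. Col10a1, the collagen of hypertrophic cartilage, gave 2 UMIs in all kept cells and is not described further. The fibril-associated chains divided between fibroblast types. Col14a1 was adventitial, at 667, 724, 665 and 820 CPM, with 215 CPM in myofibroblasts on average and 146 CPM in interstitial macrophages. Col12a1 was highest in myofibroblasts, at a mean of 256 CPM, and second in alveolar type 1 cells, at 94.2, 108, 126 and 125 CPM, above the mean of all other stromal types. Within endothelium Col12a1 stood at 19.2, 15.7, 19.3 and 35.9 CPM in aerocytes, the capillary cells that face the air space, and at a mean of 2.16 CPM in general capillary cells. Col16a1 was spread over stroma, with means of 104 CPM in myofibroblasts, 99.1 in pericytes and 93.6 in adventitial fibroblasts.

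The membrane-spanning Col13a1 was an alveolar fibroblast gene. It stood there at 419, 392, 346 and 343 CPM, against a mean of 80.9 CPM in adventitial fibroblasts, and those cells gave 91.0% of its UMIs over all named cells on average. The multiplexins, collagens with heparan sulfate or chondroitin sulfate chains that sit at basement membranes, were more vascular. Col18a1, the parent of endostatin, was highest in smooth muscle cells, at 300, 235, 386 and 352 CPM, and averaged 84.1 CPM in lymphatic and 28.0 CPM in arterial endothelium. Col15a1 averaged 157 CPM in adventitial fibroblasts and stood at 60.8, 29.6, 78.6 and 41.0 CPM in arterial endothelium. Because endothelial cells were so many, they gave 59.6% of all Col15a1 UMIs on average.

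The glycoproteins divided between several leading types. Fn1, fibronectin, was highest in alveolar fibroblasts, at 1513, 1537, 1569 and 1302 CPM, and within endothelium it stood at 184, 165, 150 and 109 CPM in arterial cells against a mean of 6.82 CPM in general capillary cells. Thbs1, thrombospondin 1, which activates latent TGF-beta and binds CD36 and CD47, was highest in myofibroblasts, at 17522, 16712, 19834 and 16276 CPM, with no overlap with alveolar fibroblasts at a mean of 2498 CPM. Thbs2 followed the same leading type at a mean of 96.6 CPM, and Tnc, tenascin C, averaged 179 CPM there and 41.5 CPM in smooth muscle cells.

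Postn, periostin, was a pericyte gene. It stood at 4219, 3197, 4989 and 4028 CPM in pericytes and at 1101, 801, 1064 and 1046 CPM in smooth muscle cells, and pericytes gave 82.6% of its UMIs on average. Tnxb, tenascin X, which keeps collagen fibres spaced, averaged 242 CPM in adventitial fibroblasts, a range that overlapped that of the myofibroblasts. In endothelium it separated the 2 capillary types: aerocytes held 48.0, 42.8, 41.8 and 45.0 CPM of Tnxb and general capillary cells 3.495, 3.56, 2.86 and 5.52. Sparc, a collagen-binding protein, was highest outside stroma, in alveolar type 1 cells at 7142, 6087, 5455 and 6759 CPM, with pericytes second at a mean of 3504 CPM. Endothelial cells, at a mean of 1007 CPM, gave 49.5% of Sparc UMIs.

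**Figure D2:**
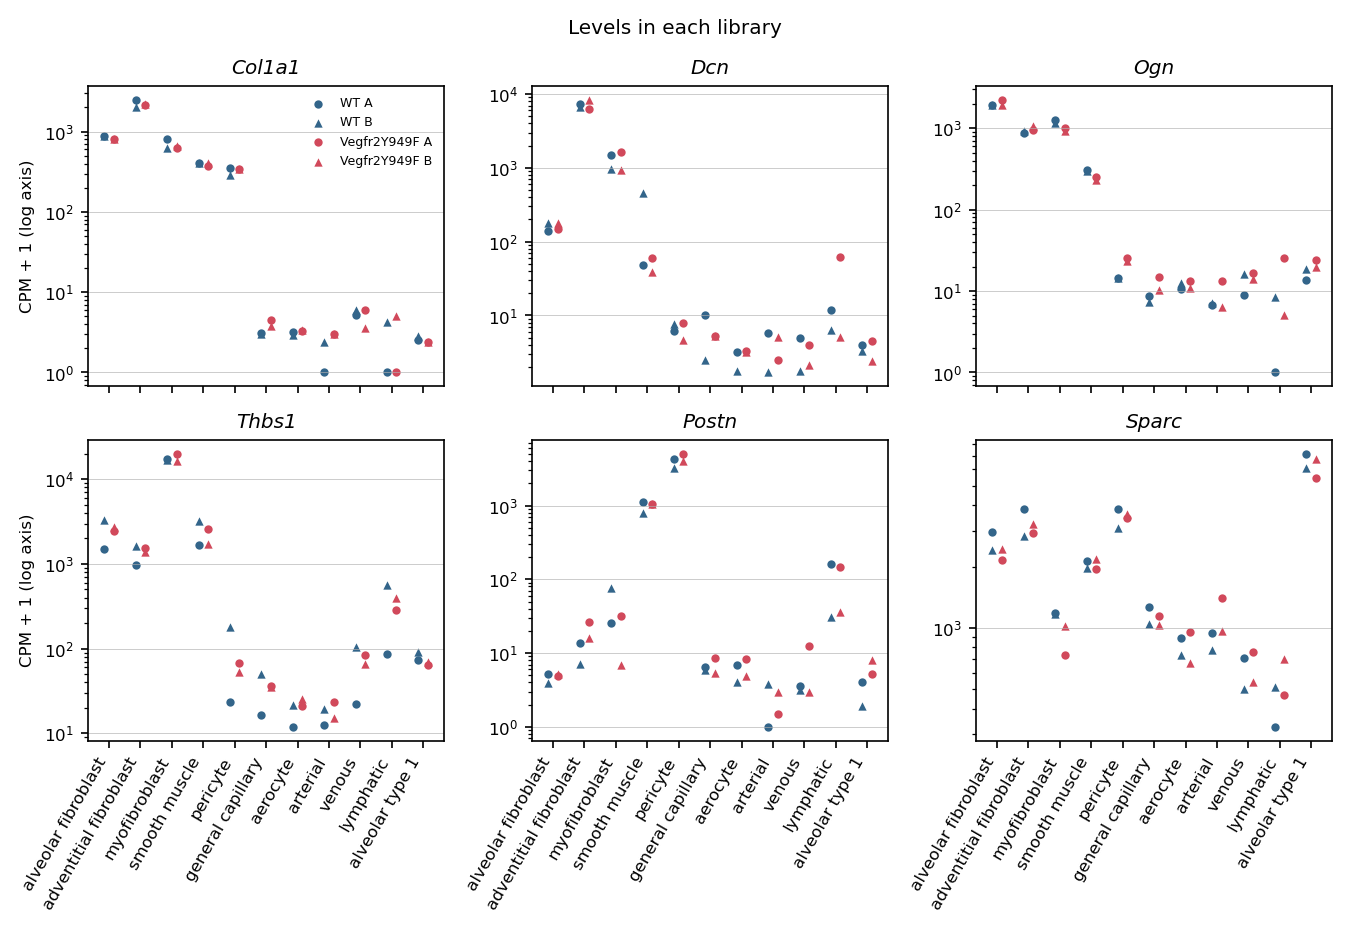
CPM plus 1 (log axis) of 6 genes in each of the 4 libraries, by cell type. Blue is WT, red is Vegfr2Y949F, circles are set A and triangles set B. Libraries of a cell type lie close together beside the distances between types, except Dcn in smooth muscle cells, where WT B stands above the other libraries, and Postn, Thbs1 and Ogn in lymphatic cells, which were few.

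The proteoglycans told adventitial from alveolar fibroblasts. Dcn, decorin, stood at 7411, 6724, 6217 and 8407 CPM in adventitial and at 137, 176, 148 and 180 CPM in alveolar fibroblasts, and adventitial cells gave 87.4% of its UMIs. Ogn, osteoglycin, went the other way, with 1942, 1949, 2239 and 1903 CPM in alveolar fibroblasts against a mean of 950 CPM in adventitial ones, and 84.9% of its UMIs came from alveolar fibroblasts. Fmod, fibromodulin, averaged 158 CPM in adventitial and 22.2 CPM in alveolar fibroblasts, and Lum, lumican, averaged 460 CPM in myofibroblasts and 278 in adventitial fibroblasts.

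Bgn, biglycan, was shared by both fibroblast types. It stood at 4492, 4149, 4670 and 3177 CPM in adventitial and at 4081, 3852, 3913 and 3297 CPM in alveolar fibroblasts, and these ranges overlapped. Bgn also divided the endothelium by vessel size, with means of 370 CPM in arterial and 286 CPM in venous cells against 28.6 in general capillary cells and 34.1 in aerocytes. Vcan, versican, which binds hyaluronan, averaged 190 CPM in adventitial fibroblasts, overlapping the myofibroblasts at 144 CPM.

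Among the genes for proteins that process or degrade collagen, Serpinh1 and Plod2 were found in more cell types than the type I and III chains. In endothelial cells Pcolce averaged only 3.13 CPM and Ctsk 1.83 CPM. Serpinh1 (HSP47, the chaperone of procollagen in the endoplasmic reticulum) stood at 1240, 891, 1010 and 891 CPM in adventitial fibroblasts, overlapped the pericytes at a mean of 886 CPM, and kept 543, 438, 422 and 378 CPM in all endothelial cells, which gave 65.6% of its UMIs. Plod2, which hydroxylates collagen lysines ahead of cross-linking, was highest in alveolar type 1 cells at 390, 362, 430 and 449 CPM, with alveolar fibroblasts at a mean of 126 CPM. Pcolce, the enhancer of procollagen C-propeptide removal, averaged 558 CPM in adventitial and 399 CPM in alveolar fibroblasts and 94.2 CPM in alveolar type 1 cells. Ctsk, the collagen-degrading protease cathepsin K, averaged 154 CPM in adventitial fibroblasts and 140 CPM in ciliated cells, and those ranges overlapped.

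Counted over the 14 stromal, endothelial and epithelial types, adventitial fibroblasts had the highest mean level for 18 of the 36 genes, myofibroblasts for 8, alveolar fibroblasts for 3 (Col13a1, Fn1 and Ogn), and pericytes, smooth muscle cells and alveolar type 1 cells for 2 each. The remaining gene was Col10a1 with its 2 UMIs. By number of UMIs the order was another one, since alveolar fibroblasts were the more numerous: they gave 57.2% of Col1a1 and 71.7% of Col6a1, and adventitial fibroblasts 36.03% and 20.2%. Across those 14 types, log2(mean CPM + 1) was most alike for Col1a1 and Col1a2 (r = 0.991), and the gene most like Dcn was Lum (r = 0.915), like Postn was Col8a1 (r = 0.83) and like Sparc was Plod2 (r = 0.874). These correlations describe points that share libraries, depth and clusters, and carry no test.

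Endothelial cells were then set beside lymphocytes, which make no fibrillar matrix and show the level that free RNA of lysed cells gives. Col1a1 stood at 2.23, 2.24, 3.18 and 2.63 CPM in endothelial cells and at 2.24, 2.68, 5.59 and 1.10 CPM in lymphocytes, and the ranges overlapped. Col1a2, Col3a1, Dcn, Ogn, Fn1, Postn and Pcolce likewise were not above lymphocytes in every library. This holds for the pooled endothelial sum only. The arterial level of Fn1 given above was higher in every library than the lymphocyte mean of 11.7 CPM. The other side held 13 genes whose endothelial level exceeded that of lymphocytes in all 4 libraries: Col5a1, Col5a2, Col12a1, Col15a1, Col18a1, Tnxb, Sparc, Bgn, Vcan, Thbs1, Thbs2, Serpinh1 and Plod2. The lymphocyte sums were far smaller, at 445738, 4475652, 1431291 and 3652659 UMIs, against 39867382 to 47184185 in endothelium. At low levels a lymphocyte sum, that of WT A most of all, can hold few UMIs or none. For Thbs2 (mean 0.448 against 0 CPM) and Vcan (1.21 against 0.641 CPM) the comparison therefore cannot decide. Serpinh1 averaged 445 against 17.0 CPM, Col15a1 14.0 against 0.175 CPM, Col5a2 12.1 against 1.37 CPM and Bgn 62.0 against 32.5 CPM. The multiplexins, the type V chains Col5a1 and Col5a2, and the procollagen chaperone were thus above the lymphocyte level in endothelium, and the type I and III chains were not.

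**Figure D3:**
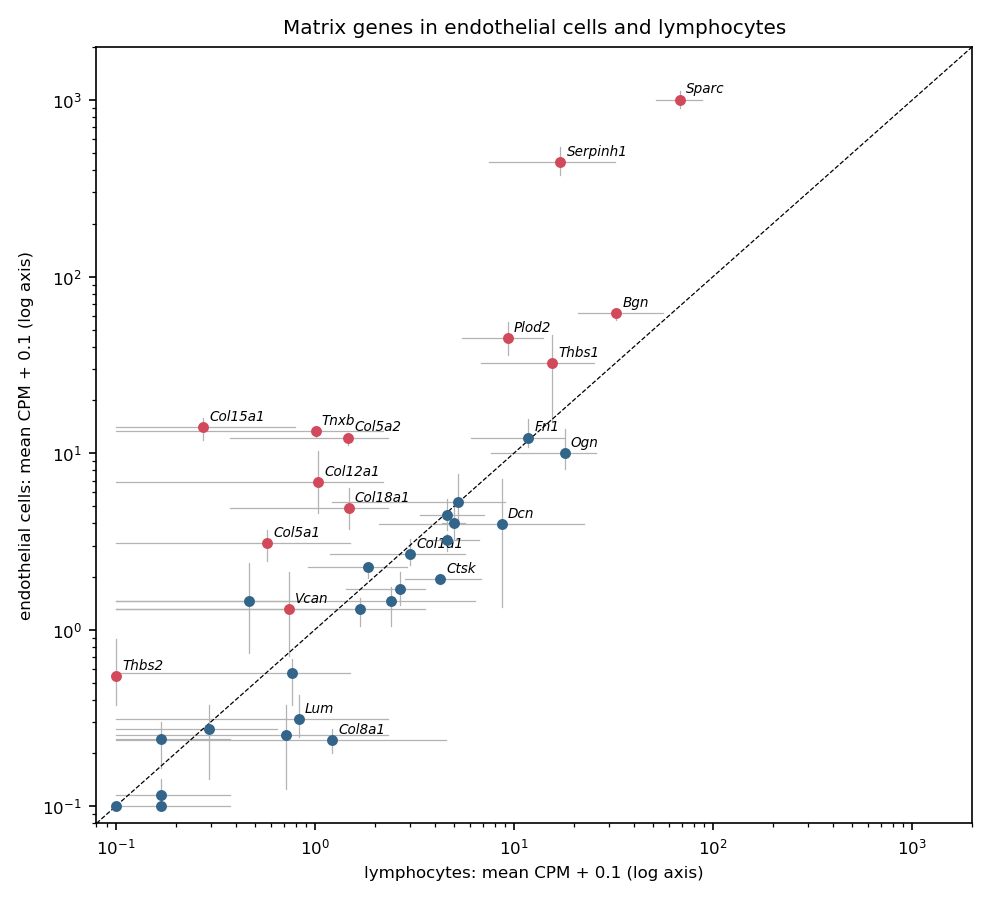
Mean CPM plus 0.1 of each of the 36 genes in endothelial cells (vertical) against lymphocytes (horizontal), both on log axes, with grey lines from the lowest to the highest of the 4 libraries and a dashed line of equal level. Red marks the 13 genes above lymphocytes in all 4 libraries. Sparc and Serpinh1 lie far above the line, and Col1a1 lies on it.

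A cluster of 869 cells stayed without a name because it carried markers of both endothelium and alveolar fibroblasts. Of its cells 98.5% had a Pecam1 UMI, 74.2% an Inmt UMI and 38.7% a Col1a1 UMI, at a median of 14069 UMIs per cell, and its Col1a1 level was 49.0, 120, 76.4 and 19.6 CPM. The libraries held 202, 204, 351 and 112 of these cells. They were left out of all sums, and the endothelial comparison and the interaction were also run with them counted as endothelium.

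The genotypes were compared on the summed UMIs of each library with edgeR's quasi-likelihood test. Under Benjamini-Hochberg adjustment over all genes tested, a gene was called at an adjusted p under 0.05. None of the 36 genes was called in any of the 18 sums tested. With 2 libraries a genotype an exact permutation test of a single gene could not go below 0.333, so the p-values given are those of the edgeR model. That model sets a difference against variation between pools of 2 mice, estimated in part from all genes together.

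In alveolar fibroblasts the collagens of the 2 genotypes lay close together. Of the 36 genes, 31 had enough counts to be tested, all but Col6a5, Col6a6, Col8a1, Col10a1 and Thbs2, and 0 were called, where 0.0165% of the 12113 genes tested were called. The 31 genes had a median log2 fold change (mutant over WT) of -0.06, with 11 above and 20 below 0, and the median of all genes was 0. Col1a2 stood at 1202, 1178, 1245 and 1163 CPM, a log2 fold change of -0.03 with a 95% interval (normal, from the SE) from -0.38 to 0.33. Col3a1 stood at 923, 1001, 917 and 1047 CPM, an interval from -0.38 to 0.36. The genotypes overlapped for both chains.

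Both mutant libraries lay below both WT libraries for 4 of the 31 genes, Col1a1, Col13a1, Col5a3 and Pcolce, as they did for 8.68% of all genes. They lay above for Col6a2, Col6a3, Col12a1 and Tnxb, as for 15.7% of all genes. Col13a1, the alveolar fibroblast collagen, had a log2 fold change of -0.28 (SE 0.18). The widest difference was that of Col5a3, at 13.6, 16.8, 10.6 and 11.3 CPM, with a log2 fold change of -0.51 (SE 0.22, adjusted p = 0.9999 by edgeR). Lum, at 0.736, 3.14, 1.23 and 1.79 CPM, had -0.35 (SE 0.64), and the value was 1.02 without WT B and -1.06 without WT A. Serpinh1, at 906, 639, 675 and 612 CPM, had -0.31 (SE 0.21). It overlapped between genotypes, with WT A alone high.

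The genes for proteins that process or degrade collagen were the 1 role group of several genes with every member below 0. Pcolce, Serpinh1, Plod2 and the collagen-degrading Ctsk had -0.31 to -0.10, and none was called. Thbs1 varied more within WT than between genotypes, with 1519 CPM in WT A and 3320 in WT B beside 2425 and 2729 in the mutants. Bgn stood at -0.18 (SE 0.19) and Col6a1 at -0.06 (SE 0.18).

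**Figure D4:**
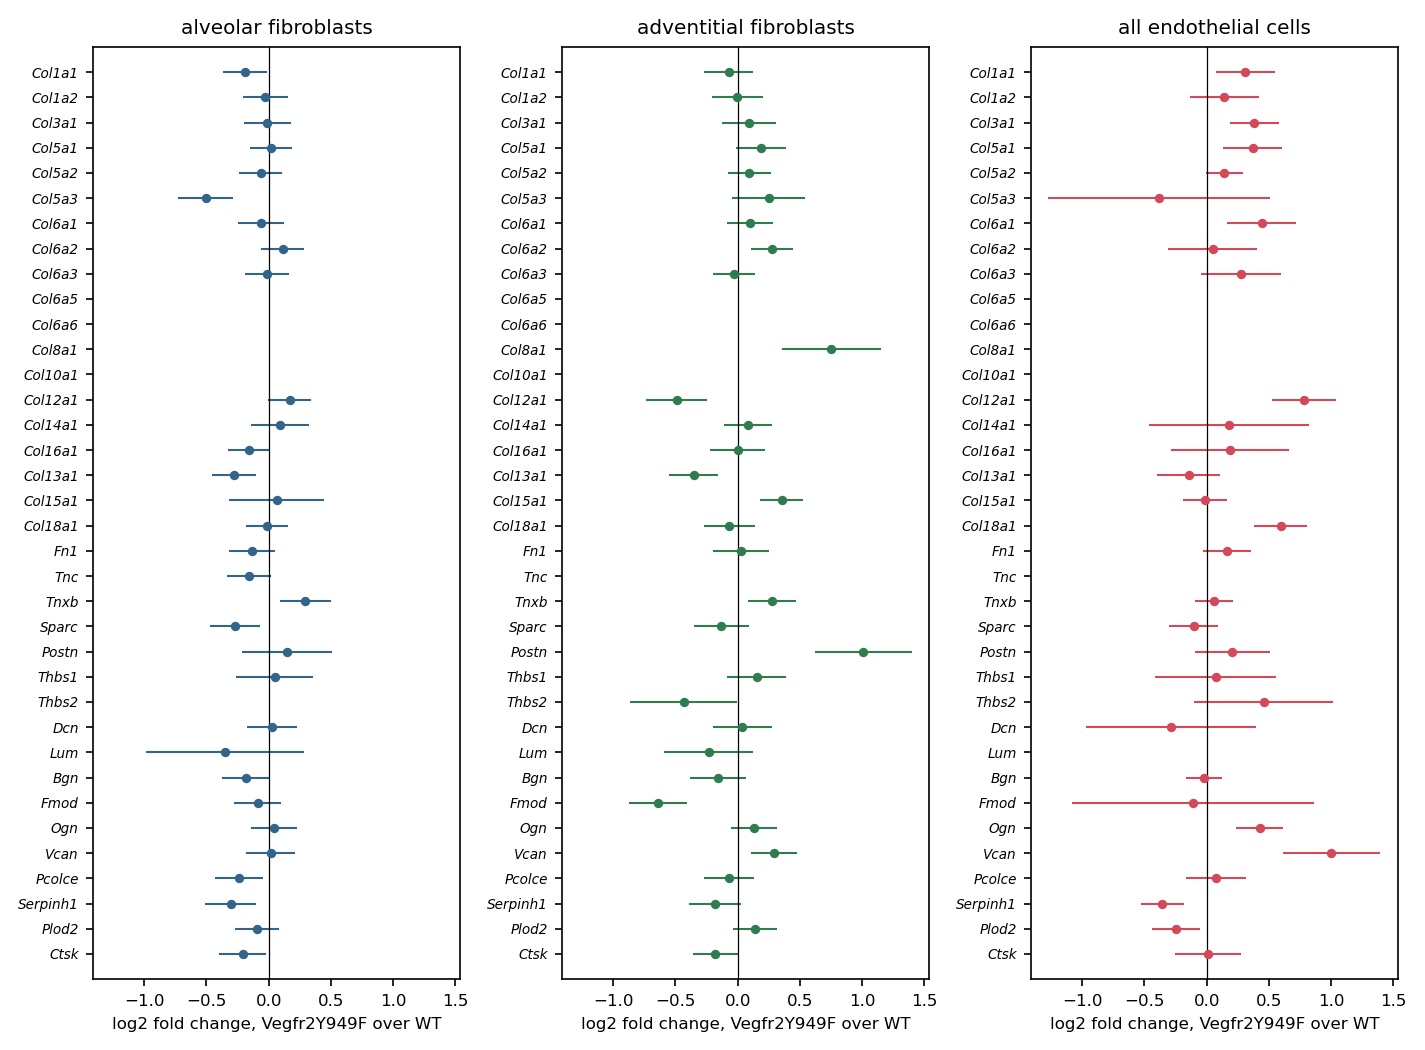
Log2 fold change of each gene, mutant over WT, in alveolar fibroblasts, adventitial fibroblasts and all endothelial cells (edgeR, 2 libraries a genotype). Bars are 1 SE, the line marks 0, and genes with too few counts have no point. Values lie within 1.1 of 0 on both sides and no gene was called.

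In adventitial fibroblasts 32 of the 36 genes were tested and 0 called, beside 0% of 9982 genes. Their median was 0.03, with 18 genes above and 14 below 0. Both mutant libraries lay above both WT libraries for 8 of the 32, against 16.6% of all genes, and below for 3, against 14.8%. The 8 were Col5a2, Col6a2, Col8a1, Col15a1, Tnxb, Ogn, Vcan and Postn, and the 3 were Col12a1, Col13a1 and Fmod. Dcn, the gene these cells lead in, overlapped between genotypes with a log2 fold change of 0.04 (SE 0.24), and so did Col1a2 at 0.00 (SE 0.21) and Col14a1 at 0.08 (SE 0.19).

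Fmod stood at 197, 186, 161 and 89.5 CPM, a log2 fold change of -0.64 (SE 0.24, adjusted p = 0.9989 by edgeR). Without mutant A, edgeR called it (-1.09, adjusted p = 0.04057), with the lone mutant library assumed to vary like the WT ones, and without mutant B it was -0.29 (adjusted p = 0.6977 by edgeR). Postn stood at 12.9, 6.08, 25.3 and 15.1 CPM, a log2 fold change of 1.01 (SE 0.39, adjusted p = 0.9989 by edgeR). Its UMIs came from few cells: 30 of 39 in mutant A and 29 of 30 in mutant B lay in 3 cells of 178. Col8a1, at 5.41, 11.7, 15.6 and 13.1 CPM, had 0.75 (SE 0.40) and rested on 86 UMIs.

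In mural cells, smooth muscle and pericytes together, 29 of the 36 genes were tested and 0 called, beside 0% of 9377 genes. The median was -0.10, with 11 above and 18 below 0. It was 0.004 in pericytes alone, with 12 above and 11 below 0, and -0.15 in smooth muscle cells alone, with 7 above and 21 below. Both mutant libraries lay above both WT libraries for 3 genes (Col5a1, Col5a3 and Col6a2; 16% of all genes) and below for 5 (Col3a1, Col12a1, Col13a1, Col14a1 and Pcolce; 10.9%). The mural genes overlapped between genotypes: Postn had a log2 fold change of 0.25 (SE 0.29), Col8a1 of -0.28 (SE 0.25) and Col18a1 of 0.27 (SE 0.26).

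Dcn had the widest mural difference, and it came from 3 cells of a library. It stood at 17.1, 165, 24.4 and 12.1 CPM, a log2 fold change of -2.38 (SE 0.71, adjusted p = 0.9995 by edgeR), with WT B alone high. In smooth muscle cells of WT B, 194 of 222 Dcn UMIs (87.4%) lay in 3 of 63 cells, and 96 in a single cell. The other libraries held 18, 25 and 10 Dcn UMIs there, and pericytes 3 to 6 a library. Without WT B the fold change was 0.10. With WT A, mutant A or mutant B left out in turn, edgeR called Dcn at -3.26, -2.95 and -2.03. Lum moved with Dcn, at 3.71, 26.0, 12.6 and 3.71 CPM (-0.90, SE 0.72), and the adventitial markers summed to 163, 76.7, 73.1 and 76.1 CPM, highest in WT A. Their part in these values was not tested. Col13a1 in mural cells stood at 15.6, 18.1, 12.6 and 7.42 CPM (-0.78, SE 0.43).

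**Figure D5:**
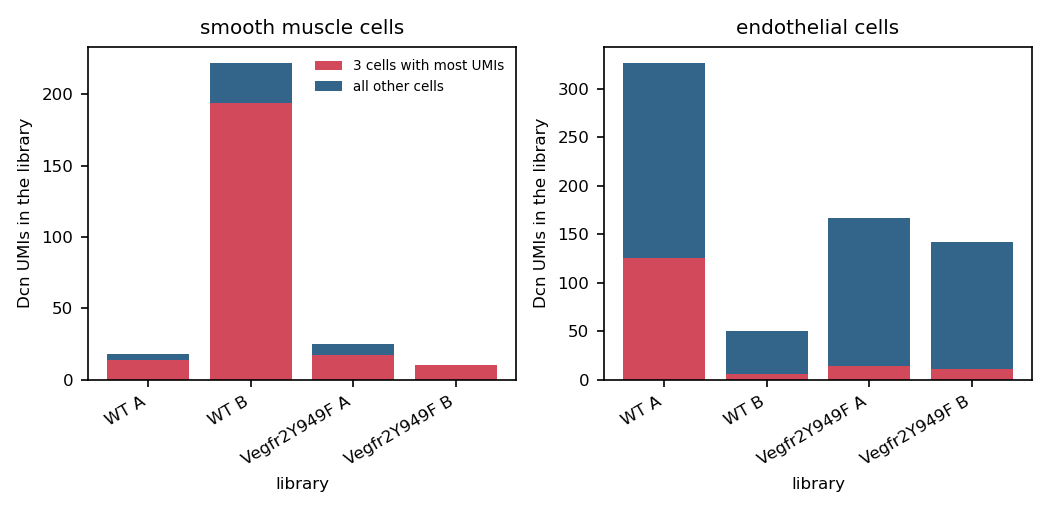
Dcn UMIs of each library in smooth muscle cells (left) and in all endothelial cells (right), as bars that start at 0. Red is the part in the 3 cells with most Dcn UMIs and blue the rest. In WT B 194 of 222 smooth muscle UMIs, and in WT A 126 of 327 endothelial UMIs, lay in 3 cells.

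In all endothelial cells 30 of the 36 genes were tested and 0 called, beside 0% of 14123 genes. The median was 0.14, with 21 above and 9 below 0, and the median of all genes was 0.00. Both mutant libraries lay above both WT libraries for 11 of the 30 genes, against 15.3% of all genes, and below for 1, Serpinh1, against 6.87%. The 11 were Col1a1, Col3a1, Col5a1, Col5a2, Col6a1, Col6a3, Col12a1, Col18a1, Tnxb, Ogn and Vcan. Of these, Col1a1, Col3a1, Col6a1, Col6a3 and Ogn were not above lymphocytes in every library and had endothelial means of 1.22 to 9.89 CPM. Values above 0 were not particular to endothelium. In T cells 10 of the 36 genes were tested and 0 called, beside 0 of 8894 genes. Their median was 0.51, with 9 above and 1 below 0. Both mutant libraries lay above both WT libraries for 2 of the 10 and below for 0, beside 1066 and 812 of all genes. The T cell sums were uneven, at 304142, 3761652, 1204765 and 3118752 UMIs on 66, 654, 247 and 464 cells. The small WT A sum limits this comparison.

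The genes that endothelium held above lymphocytes in all 4 libraries gave values on both sides. Col12a1 stood at 5.27, 4.48, 7.14 and 10.3 CPM (0.78, SE 0.26) and Col18a1 at 3.64, 3.81, 5.51 and 6.22 CPM (0.60, SE 0.21). Vcan, at 0.607, 0.945, 2.01 and 1.25 CPM, had the widest difference (1.00, SE 0.39). These 3 had unadjusted p-values from edgeR of 0.02234, 0.02962 and 0.04105, and an adjusted p of 1. Classical monocytes, a source of Vcan described below, numbered 14, 68, 149 and 65 cells. Endothelial Vcan was also highest in mutant A. The subtraction that follows used alveolar fibroblast RNA only, so the part of free monocyte RNA in Vcan was not tested. Serpinh1, at 543, 438, 422 and 378 CPM, had -0.36 (SE 0.18). Sparc, Col15a1 and Bgn overlapped between genotypes, at -0.11 (SE 0.20), -0.01 (SE 0.17) and -0.02 (SE 0.15).

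RNA of other cells was measured in the same endothelial sums. The 9 alveolar fibroblast markers, none at 0, summed to 109, 89.2, 146 and 106 CPM and overlapped between genotypes, while the 5 erythroid markers summed to 693, 889, 1375 and 1478 CPM and were higher in both mutant libraries. The 5 fibroblast markers used for subtraction stood at 0.484%, 0.441%, 0.674% and 0.544% of their alveolar fibroblast level, higher in both mutant libraries. By 3 of them the values were 0.357%, 0.318%, 0.445% and 0.331%, which overlapped. With the alveolar fibroblast profile subtracted in proportion to 5 of its markers, Col12a1 had 0.80, Col18a1 0.63 and Vcan 1.08. The median was then 0.003 over the 19 genes still tested, with 10 above and 9 below 0. Subtracted in proportion to 3 markers it was 0.16 over 24 genes, with 16 above and 8 below. With the 869 mixed cells counted as endothelium the median was -0.24, with 10 genes above and 22 below 0. Col18a1 was then 0.20 (SE 0.29), Col12a1 0.71 (SE 0.27) and Vcan 0.89 (SE 0.43). The sign of the endothelial median thus changed with whether the mixed cells were counted. The part of erythroid RNA was not tested.

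In alveolar type 1 cells 10 of the 36 genes were tested and 0 called, beside 0% of 9622 genes. Their median was 0.15, with 8 above and 2 below 0. Both mutant libraries lay above both WT libraries for 4 genes (Col12a1, Bgn, Ogn and Plod2; 15.1% of all genes) and below for 1 (Thbs1; 11.5%). Sparc, which these cells lead in, overlapped between genotypes, with a log2 fold change of -0.14 (SE 0.20) and a 95% interval from -0.52 to 0.25. Plod2 had 0.20 (SE 0.18). Bgn stood at 11.03, 17.7, 37.2 and 20.9 CPM (0.95, SE 0.33, adjusted p = 0.9999 by edgeR) on 22, 39, 54 and 45 UMIs, and was called without mutant B (1.33, adjusted p = 0.01607 by edgeR). Without mutant A it was 0.52 and with 16% of cells removed by doublet score 0.68, neither called. Its mean of 32.5 CPM in lymphocytes was above the levels in 3 of these 4 sums. Ogn had 0.41 (SE 0.30) and Thbs1 -0.32 (SE 0.20).

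Whether the genotype difference itself differed between alveolar fibroblasts and endothelial cells was tested with an interaction of type and genotype. None of 14714 genes (0%) and none of the 33 members tested was called by edgeR, while 411 genes and 7 members had an unadjusted p under 0.05. Of these 33, Col6a5 had too few counts for a usable error. The difference, fibroblast minus endothelial, was below 0 for 23 of the 33 members. Col18a1 had -0.63 (SE 0.17), Col12a1 -0.62 (SE 0.21) and Col1a1 -0.53 (SE 0.17). With the mixed cells counted as endothelium, the median went from -0.19 to 0.13. Without mutant A, Col18a1 was called (-0.82, adjusted p = 0.04416 by edgeR).

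In the other 13 sums too no member was called. They called 0.0336% of genes in arterial, 0.0280% in club cells, 0.0136% in alveolar macrophages and 0% in the others. The widest difference backed by many UMIs was that of Bgn in arterial endothelium, at 480, 499, 294 and 208 CPM on 497, 724, 595 and 310 UMIs. Both mutant libraries were lower, with a log2 fold change of -1.01 (SE 0.24, unadjusted p = 0.001343, adjusted p = 0.9994 by edgeR). It was called with the set letter as a block (-1.03, adjusted p = 0.01536 by edgeR) and without mutant A (-1.23, adjusted p = 0.03436 by edgeR), and not called with another library left out, at -1.06 to -0.83. The 3 cells with most Bgn held 17.4% to 27.7% of these UMIs in each library. In all endothelial cells, where arterial cells were 143 to 260 a library, Bgn did not share that difference. The arterial cells numbered 154, 143, 260 and 164. With the matrix genes left out of clustering, the arterial cluster held 92, 117, 89 and 110 cells, and mutant A lost the most. Bgn was not tested on that smaller arterial set, so whether its difference depends on the clustering was not tested.

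Vcan and Col12a1 differed most in general capillary cells, at 1.89 (SE 0.38) and 1.17 (SE 0.32). The Vcan value there rested on 14, 14, 67 and 40 UMIs in 4118 to 6145 cells, so its level was low in all libraries. The general capillary sum joins several clusters, and their shares differed between genotypes. A cluster led by Plvap and Ifit1 held 120, 73, 690 and 785 cells, and a cluster led by Sox17 held 1630, 1445, 405 and 807. The part of this make-up in the general capillary and endothelial values was not tested. In myofibroblasts Thbs1 (0.11, SE 0.21) and Dcn (0.12, SE 0.31) overlapped between genotypes, and in pericytes Postn (0.23, SE 0.29) did too. Col18a1 in smooth muscle cells was higher in both mutant libraries (0.46, SE 0.28) and was not called.

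The machinery around these genes gave no call either. Of 28 enzymes that modify, export, trim or cross-link collagen, 25 were tested in alveolar fibroblasts, with 6 above and 19 below 0. The smallest p was that of P4ha1, a prolyl hydroxylase subunit, at 123 CPM in WT and 102 in mutants on average (-0.30, SE 0.22). In endothelial cells 27 were tested and 15 lay above 0. Of 16 matrix receptors, 15 were tested in endothelium, 12 of them above 0, with Cd44, the hyaluronan receptor, at means of 7.09 in WT and 13.2 CPM in mutants (0.83, SE 0.19, adjusted p = 1 by edgeR).

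Of 24 other collagens and leucine-rich proteoglycans, 10 were tested in alveolar fibroblasts. Aspn, asporin, averaged 53.8 CPM in WT and 34.1 in mutants there (-0.69, SE 0.22, adjusted p = 0.9999 by edgeR), and 692 and 457 CPM in mural cells (-0.66, SE 0.31). Of 10 matrix inducers, Tgfb2, a TGF-beta ligand, averaged 4.04 and 7.02 CPM in endothelium (0.73, SE 0.19, adjusted p = 1 by edgeR). Of 10 immediate early genes, which dissociation of tissue induces, 9 lay below 0 in alveolar fibroblasts and 8 in endothelial cells. Their summed levels in alveolar fibroblasts were 24159, 30129, 23319 and 28058 CPM, higher in set B than in set A of either genotype. Their part in the values of the matrix genes was not tested.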

How the data were processed

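The deposited files hold whole-number UMI counts per gene and barcode, not normalized, written by Cell Ranger 6.1.1 per the file headers. The submitters' processing notes also name build mm10, Seurat 4.1.0, UMI-tools and fastp. The annotation and the strand setting are not given in the sources used here, and the authors' cell types were not used here. Lungs were digested with collagenase and DNase, strained and freed of red cells before 10x capture, per the labels' protocols.

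Barcodes with at least 500 genes, at least 1000 UMIs and under 15% mitochondrial UMIs were kept, and the top 8% of Scrublet scores per library were removed as doublets, because its automatic threshold marked 0, 49, 387 and 0 barcodes. Cells were clustered in scanpy 1.11.5 (2000 variable genes, 40 components, 15 neighbours, Leiden resolution 1) and named where at least 3 markers of a type were in at least 20% of a cluster's cells. With the 36 genes left out of clustering, 96.97% of cells kept their name. UMIs were summed per library and type. Types with at least 20 cells in every library were tested with edgeR 4.0.16 (R 4.3.3; TMM, filterByExpr, Benjamini-Hochberg). SE is the fold change divided by the square root of F. Scripts were tested on simulated data. The chi-square per degree of freedom between libraries was 5.81 to 18.89, so no pair agreed within sampling noise.

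The 36 genes and all lists were chosen with earlier results of these data known. Named in full are the member of each role group with the highest stromal level and the 3 largest changes in each main sum (alveolar and adventitial fibroblasts, mural, endothelial and alveolar type 1 cells), and in each other list the gene with the smallest p. Promoter matches and genes outside this rule were chosen after their values were seen.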

Additional observations from a re-analysis of the deposited data

How the results depend on the processing

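The 36 genes gave no call under DESeq2 1.42.0, DESeq2 size factors in edgeR, stricter cell filters, removal of 16% of cells by doublet score, or clusters made without them, in any of the 5 main sums, nor under subtraction of alveolar fibroblast RNA, which was run in mural, endothelial and alveolar type 1 cells. The subtraction is limited by its markers. Npnt stood at 39.5% of its alveolar fibroblast level in alveolar type 1 cells, where the other markers were at 0.192% to 0.58%. In mural cells Tcf21 stood at 22.6% and Npnt at 12.2%, and the other markers at 0.393% to 0.821%. The share subtracted in these 2 sums therefore cannot be read as free RNA alone. Without the low-count filter edgeR called 1 of the 36 genes in mural cells, Dcn. Over all genes, the number called in alveolar fibroblasts was 2 and became 1 with DESeq2 size factors, 4 with DESeq2, 35 without the low-count filter and 0 with clusters made without the 36 genes. Without that filter it was 43 in adventitial fibroblasts, 6 in mural cells, 19 in endothelium and 23 in alveolar type 1 cells, each from 0. DESeq2 called 9 genes in endothelial cells, and subtraction of fibroblast RNA gave 1 in mural cells by 5 markers and 0 by 3. Leaving out a library gave 3 to 21 genes in alveolar fibroblasts, 0 to 38 in adventitial fibroblasts, 2 to 68 in mural cells, 1 to 15 in endothelium, 3 to 53 in alveolar type 1 cells and 0 to 46 in the interaction. Of the 36 genes it called 0 to 1 in adventitial, mural and alveolar type 1 cells and in the interaction, and 0 in alveolar fibroblasts and endothelial cells. The causes were not tested.

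Of values larger than their SE, 5 turned sign, as did 4 medians. In mural cells, leaving out a library gave -3.26 to 0.10 for Dcn, -2.01 to 1.13 for Lum and -0.99 to 0.47 for Thbs1, each turned without WT B, and -0.027 to 0.50 for Col18a1, turned without mutant A. With the mixed cells counted, Col6a1 in endothelium went to -0.57 and the endothelial median to -0.24. The mural median went to 0.006 with fibroblast RNA subtracted by 3 markers, which include Tcf21, and to 0.004 in pericytes alone. In the interaction the median went from -0.19 to 0.131 with the mixed cells. Another 40 turns were of values smaller than their SE, Lum in alveolar fibroblasts without WT B (1.02) among them. The mixed cells, 3 markers and pericytes alone were chosen after seeing the data.

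The set letters may pair the libraries, but the labels do not say so and there are only 2 pairs. Deviations of set A from set B in WT and mutant correlated at 0.185 to 0.409 over genes in the 5 sums. With the set letter as a replicate block, edgeR called 27 genes in alveolar fibroblasts, 23 in adventitial fibroblasts and 14 in endothelial cells, and none of the 36 genes in the main sums. In the 13 other sums it called Bgn in arterial cells and Serpinh1 in interstitial macrophages (-2.18, adjusted p = 0.02484 by edgeR). Leaving out a library there, added after seeing the data, gave 52 fits, of which 16, in 9 sums, called 1 to 4 of the 36 genes, and the sign of Fn1 in interstitial macrophages and of Sparc in alveolar macrophages turned with the library left out. Low counts limit Col6a5, Col6a6 and Col10a1, which no sum of a single type had enough counts to test.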

Other observations

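Leukocytes were a source of several of these genes. Classical monocytes, the circulating precursors of lung macrophages, held 820, 964, 1244 and 281 CPM of Vcan, and their 14, 68, 149 and 65 cells belong to a leukocyte share that gave 11.9% to 77.3% of all Vcan UMIs, depending on the library. They also held 677, 746, 1094 and 445 CPM of Fn1. Thbs1 stood at 3350, 3834, 3552 and 4755 CPM in neutrophils and at 4021, 3076, 4471 and 2273 CPM in classical monocytes, with genotypes that overlapped in neutrophils (0.07, SE 0.24). Leukocytes gave 15.6% to 50.9% of Thbs1 UMIs, with the highest share in mutant A, the library with most neutrophils.

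Ctsk, cathepsin K, was highest of all types in alveolar macrophages, at 529, 563, 391 and 442 CPM. Both mutant libraries were lower there (-0.45, SE 0.17, unadjusted p = 0.02434, adjusted p = 0.9997 by edgeR). In neutrophils 11 of the 12 genes tested lay above 0, with a median of 0.59, beside a median of 0.002 over all genes. Of the 12, 0 were called, beside 0% of 6476 genes. Fn1 in neutrophils stood at 5.17, 4.84, 14.2 and 15.1 CPM (1.40, SE 0.38, adjusted p = 0.9985 by edgeR), beside a mean of 11.7 CPM in lymphocytes, and Fn1 in club cells, the secretory cells of small airways, at 6.204, 3.13, 20.2 and 32.6 CPM (2.46, SE 0.46, adjusted p = 0.9949 by edgeR). The club cells numbered 25, 38, 50 and 21, and edgeR called Fn1 in them with WT A, mutant A or mutant B left out, at 1.99 to 2.84, and not without WT B, at 2.09. Fn1 in alveolar macrophages stood at 326, 381, 400 and 611 CPM (0.44, SE 0.22). No cause of these differences was tested.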
